A study of Mus musculus with 9 samples.

Results

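The interleukin-1 and interleukin-18 system was examined in RNA from the back skin of mice with dermatitis induced by DNCB (dinitrochlorobenzene), a small reactive molecule that sensitizes the skin. The 10 genes were taken by name, as the ligands, receptors, decoys and processing genes of the system, from the 34637 genes with FPKM values, and all 10 were among the 20817 genes tested of the 55401 in the count table. C57BL/6 males of 6 to 8 weeks were painted on shaved back skin with 200 μL of 1% DNCB and from day 4 to day 21 with 100 μL of 0.5% DNCB. After day 7 and until day 28 the 5 mice labelled FJDHF were fed daily with the Fangji Dihuang formulation, a decoction of plant drugs, and the 4 mice labelled Model were given water instead. All 9 mice therefore carry the DNCB treatment, and skin of untreated mice was not analysed here.

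The tables name the libraries by codes, 5 of which start with MR and 4 with MXL. The MR libraries were taken as FJDHF and the MXL libraries as Model because 5 and 4 mice carry those labels, and no code was tied to a single mouse. The direction of each comparison rests on this assignment. Whether codes such as MXL12 or MR3_4 stand for RNA from more than 1 mouse is not stated, so n counts libraries and the p-values measure the spread between libraries. If codes such as MR3 and MR3_4 shared a mouse, these libraries would not be independent and the p-values would not hold. Libraries held 74648669 to 79474215 counts, and the lowest count of any of the 10 genes in any library was 98. The keratins of the epidermis were found in each library, with Krt10 at 997 CPM or more, Krt5 at 575 CPM or more and Krt14 at 203 CPM or more. The tissues in the libraries varied. The summed CPM of 8 skeletal muscle markers ran from 430 in MXL12 to 12969 in MXL_3. For 7 markers of basal keratinocytes it ran from 1353 in MXL_3 to 7120 in MXL1.

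Interleukin-1 comes as a pair of agonists with a shared receptor. IL-1α is stored by keratinocytes and released on injury, whereas IL-1β is made by activated myeloid cells as a precursor that caspase-1 cleaves once an inflammasome such as NLRP3 has formed. IL-18 is also cut by caspase-1, and keratinocytes hold its precursor in resting epidermis. The system is held back by a receptor antagonist, by a decoy receptor that binds ligand without signalling and by a soluble protein that captures IL-18. In whole skin a lower level can mean fewer cells of a type or less RNA per cell, which cannot be told apart.

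None of the 10 genes separated the MR from the MXL libraries. At an adjusted p under 0.05 with a change of at least 2-fold, 0 of 10 were called by edgeR's quasi-likelihood test, where 0 of all tested genes (0.00%) were called. DESeq2 called 2 of all genes and 0 of the 8 members to which it gave an adjusted p, and it gave none to Il1b and Nlrp3. limma on log2(FPKM + 1) called 0 of the 10 and 0 of all genes. At an unadjusted p under 0.05, 1 of the 10 passed, Il18, where 326 of all tested genes (1.57%) did. The groups overlapped in CPM (counts per the same number of reads in every library, after TMM scaling) for each of the 10 genes, and 107 of all tested genes (0.514%) had groups without overlap. The adjusted p of each of the 10 genes was 1.00.

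The pattern that stood out lay within the groups, in single libraries. MXL12 held the highest CPM of the 9 libraries for 7 of the 10 genes, Il1a, Il1b, Il1rn, Il1r2, Il1r1, Il18r1 and Nlrp3, where it was the highest for 14.5% of all tested genes. It exceeded each other library at least 2-fold for 4 of the 10, Il1b, Nlrp3, Il1r2 and Il1r1, where it did so for 0.836% of all tested genes. With all 9 libraries 3 of the 10 genes had a log2 fold change above 0 (MR over MXL), against 44.1% of all tested genes, and without MXL12 it was 7 of 10, against 45.0%.

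**Figure D1:**
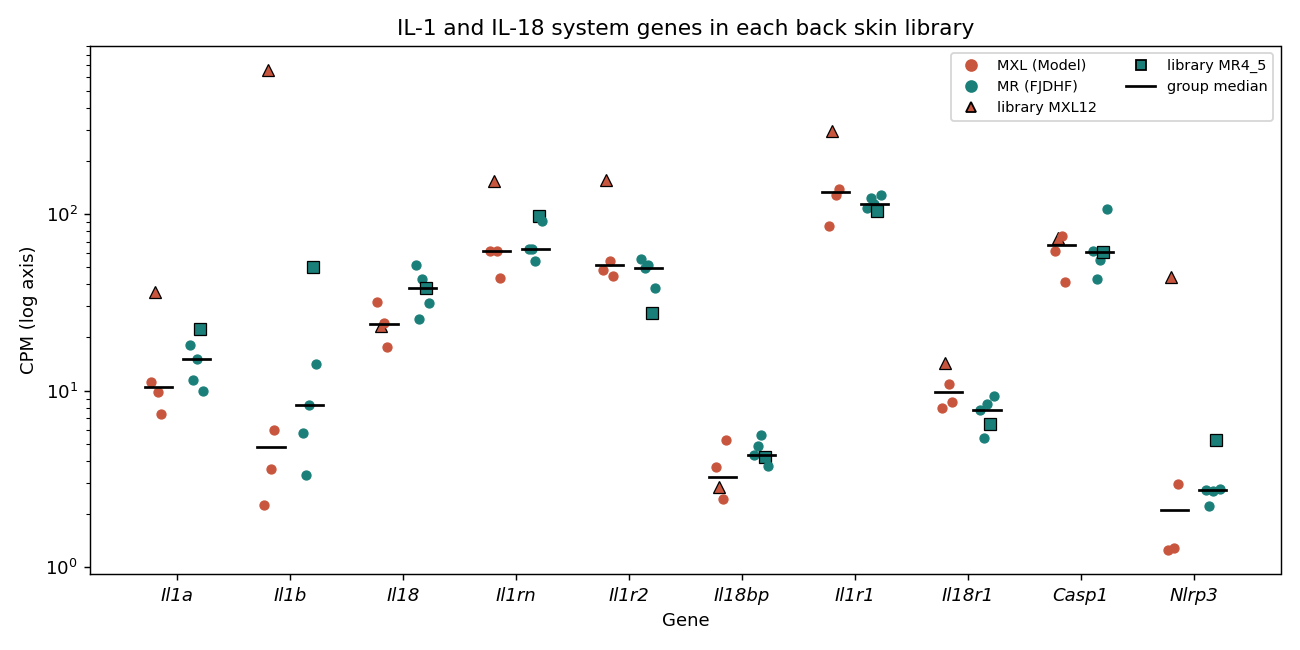
Each point is the CPM of a gene (x axis) in 1 library on a log axis (y axis), with MXL (Model, n = 4) in red and MR (FJDHF, n = 5) in green, and a black bar at the group median. MXL12 (triangle) lies at 660 CPM for Il1b and 43.9 CPM for Nlrp3, far above the other MXL libraries, and MR4_5 (square) is the highest MR library for both genes.

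Among the ligands, Il1b had the widest range. Its gene (ENSMUSG00000027398) lies on the minus strand of chromosome 2, from 129364570 to 129371139 in GRCm38. Il1b read 5.74 CPM in MR1, 3.30 in MR3, 8.23 in MR3_4, 50.2 in MR4_5 and 14.1 in MR5. In the MXL libraries it read 2.23 CPM in MXL1, 660 in MXL12, 3.60 in MXL3_4 and 5.95 in MXL_3. The MXL libraries thus included both the highest and the lowest level, with 49835 counts in MXL12 against 176 in MXL1. MXL12 exceeded the next highest library, MR4_5, 13.1-fold. The mean levels were 16.3 ± 19.4 CPM (SD, n = 5) in MR and 168 ± 328 CPM (SD, n = 4) in MXL, while the medians were 8.23 and 4.77 CPM, so mean and median placed the groups in opposite order. In edgeR's fit Il1b had a log2 fold change of -3.36 (standard error 1.60, unadjusted p = 0.0608, adjusted p = 1.00), and the difference in mean log2(CPM + 0.5) was -0.44 (exact permutation p = 0.865). Without MXL12 the log2 fold change was 2.06, with a standard error of 0.87 (unadjusted p = 0.0412, adjusted p = 1.00 from edgeR), and the exact permutation p was 0.214.

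Il1a (ENSMUSG00000027399, chromosome 2, 129299610 to 129309972, minus strand), the neighbouring gene of the epidermal alarmin, shared its top libraries with Il1b and had a smaller range. It read 18.1 CPM in MR1, 11.4 in MR3, 15.0 in MR3_4, 22.2 in MR4_5 and 9.97 in MR5. In MXL it read 11.2 CPM in MXL1, 36.4 in MXL12, 9.85 in MXL3_4 and 7.39 in MXL_3. MXL12 was again the highest library and MR4_5 the next, while MXL3_4 and MXL_3 lay below all MR libraries. The other libraries were ordered otherwise than for Il1b, with MR5 the lowest MR library for Il1a. Pearson's r of Il1a in log2(CPM + 0.5) was 0.83 with Il1b and 0.34 with Il18, and 0.56 and 0.85 without MXL12. Its log2 fold change was -0.08, with a standard error of 0.46 (exact permutation p = 0.754), and 0.70 without MXL12 (standard error 0.31, unadjusted p = 0.0479, adjusted p = 1.00 from edgeR, exact permutation p = 0.0893).

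Il1a, Il1b and Nlrp3 were high in the same libraries, MXL12 and MR4_5, and so was Il1rn. The sequences around the starts of Il1a, Il1b and Nlrp3 are shown as examples. They run from 250 bases before to 50 bases after the start in the RefSeq annotation of GRCm38.p6, 5′ to 3′ on the strand of the gene. All 10 genes matched a window by symbol, with 16 windows in all. Both strands were searched for the TATA box letters TATAAA. They were also searched for TGANTCA, which AP-1 factors are known to bind, and for the NF-kappaB consensus, and capitals mark the matches. Il1a is at chr2:129309923-129310222, Il1b at chr2:129371090-129371389 (both minus strand) and the first start of Nlrp3 at chr11:59541319-59541618 (plus strand).

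Il1a: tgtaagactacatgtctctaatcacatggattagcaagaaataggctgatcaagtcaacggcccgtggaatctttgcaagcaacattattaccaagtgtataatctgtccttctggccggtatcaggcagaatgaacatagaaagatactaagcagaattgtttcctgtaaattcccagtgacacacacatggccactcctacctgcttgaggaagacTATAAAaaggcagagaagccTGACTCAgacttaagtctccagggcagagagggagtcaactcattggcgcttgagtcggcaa
Il1b: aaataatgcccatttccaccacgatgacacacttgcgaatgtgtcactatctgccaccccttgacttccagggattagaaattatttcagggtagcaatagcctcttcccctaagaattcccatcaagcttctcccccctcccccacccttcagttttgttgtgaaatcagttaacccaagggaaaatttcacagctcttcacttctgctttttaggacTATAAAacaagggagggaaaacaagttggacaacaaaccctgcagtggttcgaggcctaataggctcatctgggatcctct
Nlrp3: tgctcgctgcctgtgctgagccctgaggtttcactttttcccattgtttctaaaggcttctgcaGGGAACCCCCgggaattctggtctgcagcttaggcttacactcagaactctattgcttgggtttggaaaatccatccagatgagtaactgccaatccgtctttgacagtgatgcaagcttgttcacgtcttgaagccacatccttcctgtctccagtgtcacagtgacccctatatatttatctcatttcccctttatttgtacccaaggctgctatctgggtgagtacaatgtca

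TATAAA began 32 bases before the start of Il1a and 31 bases before that of Il1b (positions -32 and -31, with the start base as 1), on the strand of the gene in both. It was also found on the opposite strand at 15 in 1 window of Il1rn and at -175 in 1 window of Il18. Of all 32851 windows 13.6% held this motif on either strand. TGANTCA, which reads alike on both strands, was found at -12 in Il1a and at -141 in 1 window of Il1rn, and 7.81% of all windows held it. The NF-kappaB consensus was found on the opposite strand at -186 in the Nlrp3 window shown and at -232 in 1 window of Il1r1, and 4.51% of all windows held it. A second Nlrp3 window, at chr11:59542436-59542735, held none of these motifs. These matches describe letters in a window and show no binding.

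Il18 (ENSMUSG00000039217, chromosome 9, 50554827 to 50581840, plus strand) was the member with the smallest p, and it was higher in MR at an unadjusted p only. It read 51.3 CPM in MR1, 25.6 in MR3, 43.2 in MR3_4, 38.0 in MR4_5 and 31.2 in MR5. In MXL it read 31.7 CPM in MXL1, 23.3 in MXL12, 24.1 in MXL3_4 and 17.6 in MXL_3. All 5 MR libraries lay above 3 of the 4 MXL libraries, and MXL1 lay above MR3 and MR5. The medians were 38.0 CPM in MR and 23.7 CPM in MXL (24.2 ± 5.83 CPM, SD, n = 4). edgeR gave a log2 fold change of 0.65 (standard error 0.24, unadjusted p = 0.0232, adjusted p = 1.00), and the exact permutation p was 0.0397, not adjusted for the 10 genes. Without MXL12 it was 0.63 on the log2 scale. With single libraries left out the log2 fold change stayed between 0.50 and 0.81 and the exact permutation p between 0.0357 and 0.107.

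**Figure D2:**
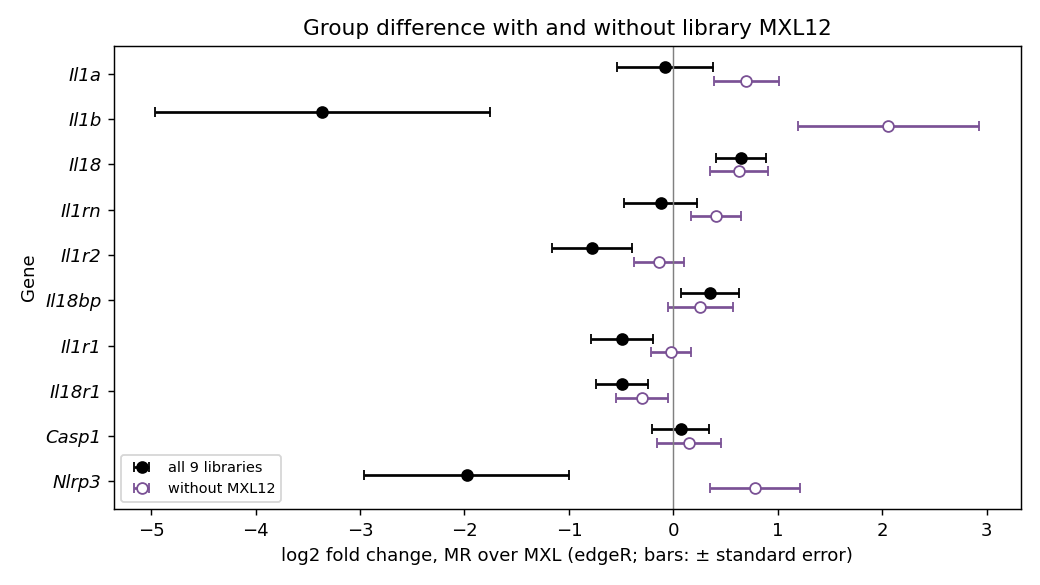
Log2 fold change of MR over MXL from edgeR (x axis) for each gene (y axis), with bars of 1 standard error, for all 9 libraries (black) and without MXL12 (open purple). Il1b moved from -3.36 to 2.06 and Nlrp3 from -1.98 to 0.78, whereas Il18 stayed at 0.65 and 0.63.

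The antagonist, the decoy and the binding protein differed in how they tracked the ligands. Il1rn (ENSMUSG00000026981, chromosome 2, 24336853 to 24351494), which encodes the IL-1 receptor antagonist, read 63.6 CPM in MR1, 63.3 in MR3, 54.3 in MR3_4, 97.3 in MR4_5 and 91.3 in MR5, against 62.3 in MXL1, 154 in MXL12, 61.9 in MXL3_4 and 43.3 in MXL_3. The highest libraries were those with the most Il1b, namely MXL12, MR4_5 and MR5 in that order. The log2 fold change of Il1rn was -0.12 (standard error 0.35, exact permutation p = 0.96), and 0.41 without MXL12.

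Il1r2 (ENSMUSG00000026073, chromosome 1, 40074079 to 40125231), the decoy receptor, was highest in MXL12 and lowest in MR4_5, the 2 libraries with the most Il1b. It read 55.5 CPM in MR1, 49.5 in MR3, 51.3 in MR3_4, 27.7 in MR4_5 and 38.2 in MR5. In MXL it read 48.3 CPM in MXL1, 157 in MXL12, 54.6 in MXL3_4 and 44.4 in MXL_3. Apart from MXL12 the groups had like levels, and MR4_5 and MR5 were the only libraries below MXL_3. For Il1r2 the log2 fold change was -0.78, with a standard error of 0.38 (unadjusted p = 0.0708, exact permutation p = 0.222), and -0.14 without MXL12.

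Il18bp (ENSMUSG00000070427, chromosome 7, 102014885 to 102018197), whose product captures IL-18, was low throughout. It read 3.71 to 5.62 CPM in MR (median 4.33) and 2.43 to 5.27 CPM in MXL (median 3.24), with MXL_3 above 4 of the 5 MR libraries. For Il18bp the log2 fold change was 0.35, with a standard error of 0.28 (exact permutation p = 0.151). When MXL_3 was left out, the exact permutation p was 0.0179, the smallest that 5 against 3 libraries allow. The other MXL libraries lay below all MR libraries, so leaving out MXL_3 fixed this p in advance and it decides nothing. When any other library was left out instead, the exact permutation p lay between 0.143 and 0.321.

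Both signalling receptors had a log2 fold change below 0. Il1r1 (ENSMUSG00000026072, chromosome 1, 40225080 to 40317257), the chain that binds IL-1α and IL-1β, read 108 CPM in MR1, 123 in MR3, 115 in MR3_4, 104 in MR4_5 and 129 in MR5, the narrowest spread relative to the mean of the 10 genes within MR (116 ± 10.6 CPM, SD, n = 5). In MXL it read 85.3 CPM in MXL1, 296 in MXL12, 128 in MXL3_4 and 139 in MXL_3, so the MXL libraries lay on both sides of MR. The log2 fold change was -0.49, with a standard error of 0.30 (exact permutation p = 0.444), -0.02 without MXL12 and -0.70 without MXL1, where the exact permutation p was 0.0357.

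Il18r1 (ENSMUSG00000026070, chromosome 1, 40465552 to 40500854), the ligand-binding chain for IL-18, read 7.77 CPM in MR1, 5.35 in MR3, 8.41 in MR3_4, 6.49 in MR4_5 and 9.27 in MR5. In MXL it read 7.93 CPM in MXL1, 14.3 in MXL12, 10.9 in MXL3_4 and 8.65 in MXL_3. MXL12 and MXL3_4 lay above the MR libraries and the other MXL libraries lay among them. The log2 fold change was -0.49, with a standard error of 0.25 (unadjusted p = 0.0812, exact permutation p = 0.0873), and between -0.60 and -0.30 with single libraries left out.

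The 2 processing genes behaved unlike each other. Nlrp3 (ENSMUSG00000032691, chromosome 11, 59541568 to 59566956), the inflammasome sensor, read 2.71 CPM in MR1, 2.21 in MR3, 2.69 in MR3_4, 5.25 in MR4_5 and 2.75 in MR5. In MXL it read 1.24 CPM in MXL1, 43.9 in MXL12, 1.28 in MXL3_4 and 2.93 in MXL_3, so MXL12 exceeded the next library 8.36-fold. The order of libraries resembled that of Il1b, with MXL12 first, MR4_5 next and MXL1 lowest. For Nlrp3 the log2 fold change was -1.98, with a standard error of 0.98 (unadjusted p = 0.0698, exact permutation p = 0.889), and 0.78 without MXL12.

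Casp1 (ENSMUSG00000025888, chromosome 9, 5298508 to 5307290), the protease that matures IL-1β and IL-18, did not share this pattern. It read 62.2 CPM in MR1, 43.2 in MR3, 55.2 in MR3_4, 61.4 in MR4_5 and 107 in MR5, against 61.6 in MXL1, 73.1 in MXL12, 75.6 in MXL3_4 and 41.2 in MXL_3. MXL12 was the third highest library for Casp1 and MR5 the highest. For Casp1 it was 0.07 on the log2 scale (standard error 0.27, exact permutation p = 0.897), and it lay between -0.18 without MR5 and 0.19 without MR3.

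Levels of different genes were set side by side as FPKM, which the authors scaled for gene length. Il18 had the highest median over the 9 libraries, 29.4 FPKM (15.5 to 46.7), followed by Il1r2 at 24.7, Casp1 at 19.1, Il1r1 at 18.7 and Il1rn at 11.0 FPKM. Il1a followed at 5.67 FPKM (3.41 to 17.4), Il1b at 2.82 (1.13 to 327), Il18r1 at 1.60, Il18bp at 1.34 and Nlrp3 at 0.627 FPKM (0.292 to 10.2). Neighbours in this order mostly changed places between libraries. Il18 was above Il1r2 in 5 of 9 libraries and Casp1 above Il1r1 in 5 of 9, and Il1a was above Il1b in 6 of 9. Il1rn was above Il1a in 9 of 9. Il18 was above Il1b in 8 of 9 libraries, and MXL12 was the exception, with Il1b at 327 FPKM against 21.3 FPKM for Il18.

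The balance of inhibitor and ligand was described as a ratio of FPKM within each library. Il1rn over the sum of Il1a and Il1b was 0.942 in MR1, 1.53 in MR3, 0.824 in MR3_4, 0.467 in MR4_5 and 1.33 in MR5. It was 1.65 in MXL1, 0.0765 in MXL12, 1.63 in MXL3_4 and 1.14 in MXL_3. Il1rn thus had its highest level and its lowest ratio to ligand in MXL12. Il1r2 over Il1r1 lay between 0.89 in MR4_5 and 1.72 in MR1 within MR (median 1.34), and between 1.06 in MXL_3 and 1.89 in MXL1 within MXL (median 1.60), and MXL12 (1.77) lay among the other MXL libraries. Il18bp over Il18 was 0.0287 to 0.064 in MR and 0.0341 to 0.102 in MXL, with medians of 0.0405 and 0.0402. The binding protein was far below its ligand in each library. A further ratio, Il18 over Il1b, was added after the values were seen, and it was 1.40 to 16.6 in MR and 0.0652 to 26.6 in MXL.

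**Figure D3:**
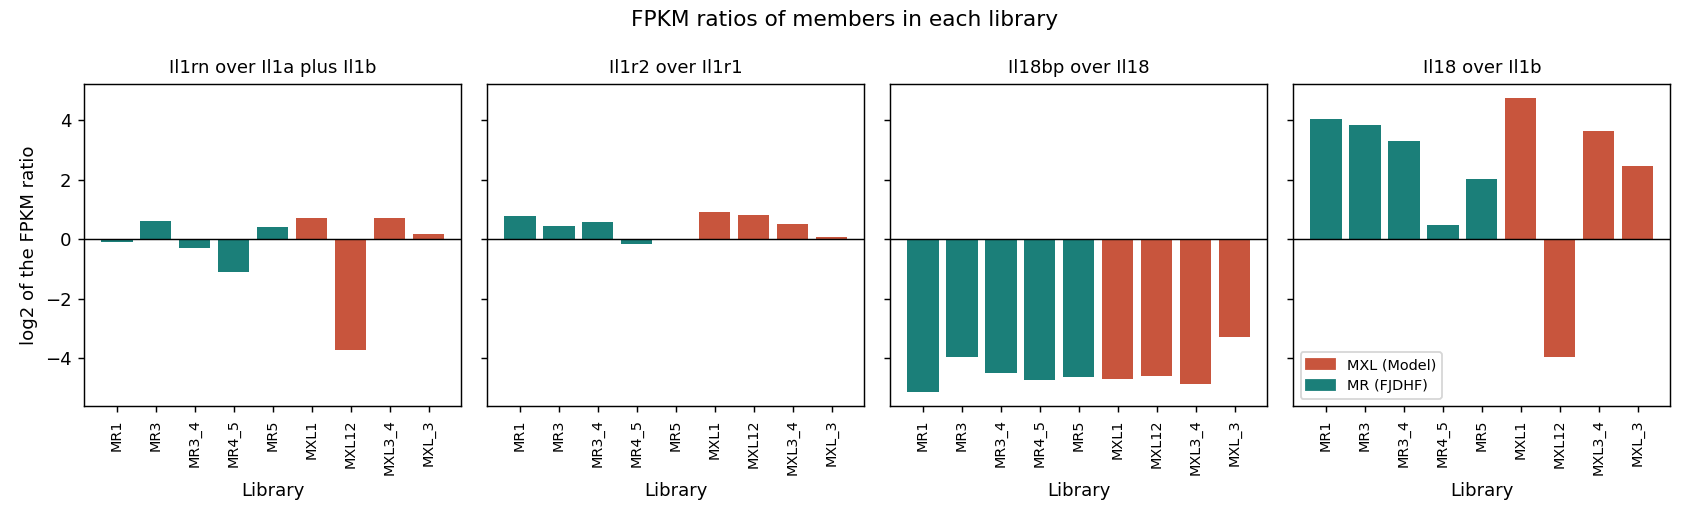
Bars give the log2 of the FPKM ratio (y axis) in each library (x axis) for 4 pairs of members, with MXL in red and MR in green, and 0 means equal FPKM. MXL12 has the lowest bar for Il1rn over Il1a plus Il1b (-3.71) and for Il18 over Il1b (-3.94), and MR4_5 has the next lowest in both.

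The genes most correlated with each ligand were different for Il1b and Il18. By Pearson's r of log2(CPM + 0.5) over the 9 libraries, the 5 genes most like Il1b were Cxcr2, the neutrophil chemokine receptor (r = 0.987, and 0.966 without MXL12), Sirpb1b (0.986 and 0.972), Ptgs2, the inducible cyclooxygenase (0.981 and 0.938), Gm5150 (0.981 and 0.938) and Treml4 (0.981 and 0.925). For Il18 they were Flg, the filaggrin gene of the granular layer (r = 0.98, and 0.98 without MXL12), Serpina12 (0.961 and 0.96), Il1f8, the IL-36β gene (0.955 and 0.962), Gm37496 (0.953 and 0.948) and Megf6 (0.95 and 0.95). For Il1a they were Csta3 (r = 0.952, and 0.896 without MXL12), Cemip (0.944 and 0.876), Sprr2g (0.941 and 0.878), Hcar2 (0.93 and 0.843) and 4732465J04Rik (0.93 and 0.872). Spearman's rho uses only the order of the libraries. It was 0.883 to 0.983 for the Il1b list, 0.9 to 0.983 for Il18 and 0.817 to 0.95 for Il1a. Csta3, Sprr2g and 4732465J04Rik read only 0, 0.0774 and 0.18 CPM in their lowest library. Gm37496 of the Il18 list fell to 0.0553 CPM and Treml4 of the Il1b list to 0.155 CPM. These values are descriptions of the highest r among all tested genes and carry no p, the 9 libraries span both groups, and Sirpb1b, Csta3 and Sprr2g belong to families whose copies can share reads. Among the members, Nlrp3 was the one most like Il1b (r = 0.97, and 0.89 without MXL12).

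Marker sums followed some of these levels in part. The summed CPM of 13 neutrophil markers was 861 in MXL12 and 41.1 to 143 in the other MXL libraries, and 69.0 to 191 in MR with MR4_5 highest, the order of Il1b at its top. Below MXL12 and MR4_5 the order differed, as the sum was 143 in MXL_3, 141 in MR1 and 70.4 in MR5, the next library for Il1b. Of these markers 11 of 13 were highest in MXL12, against 14.5% of all tested genes. Cxcr2 was 80.2 CPM in MXL12, Trem1 85.2 and S100a9 256. Mmp8 was 10.3 CPM in MXL12 and up to 9.64 in the other MXL libraries. Ly6g was 1.05 CPM in MXL12 and 0 in at least 1 library of each group. Within MR 7 of the 13 were highest in MR4_5, where S100a9 made 73.7 of the 191 CPM, and the share of all tested genes highest there is not given. Mmp8 was 3.96 CPM in MR4_5 and up to 4.36 in MR. The monocyte and macrophage markers, 2931 CPM in MXL12, fell between the lowest and highest of the others, 1448 and 3690. The summed CPM of 11 T and NK cell markers was 83.4 in MXL12 and 27.2 to 64.2 in the other 8 libraries, so it was highest where Il18r1 and Il18rap were highest, with 3 of the 11 markers highest in MXL12. The summed CPM of 11 markers of differentiated keratinocytes was 9004 to 17224 in MR and 3488 to 10338 in MXL, and as with Il18 MXL1 was the only MXL library inside the MR range. For 8 markers of activated keratinocytes it was 693 to 3826 CPM in MR, with MR4_5 highest, and 177 to 1879 in MXL, with MXL12 highest. The part of these cells in the levels of Il1b, Il18, Il18r1 and Il18rap was not tested.

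**Figure D4:**
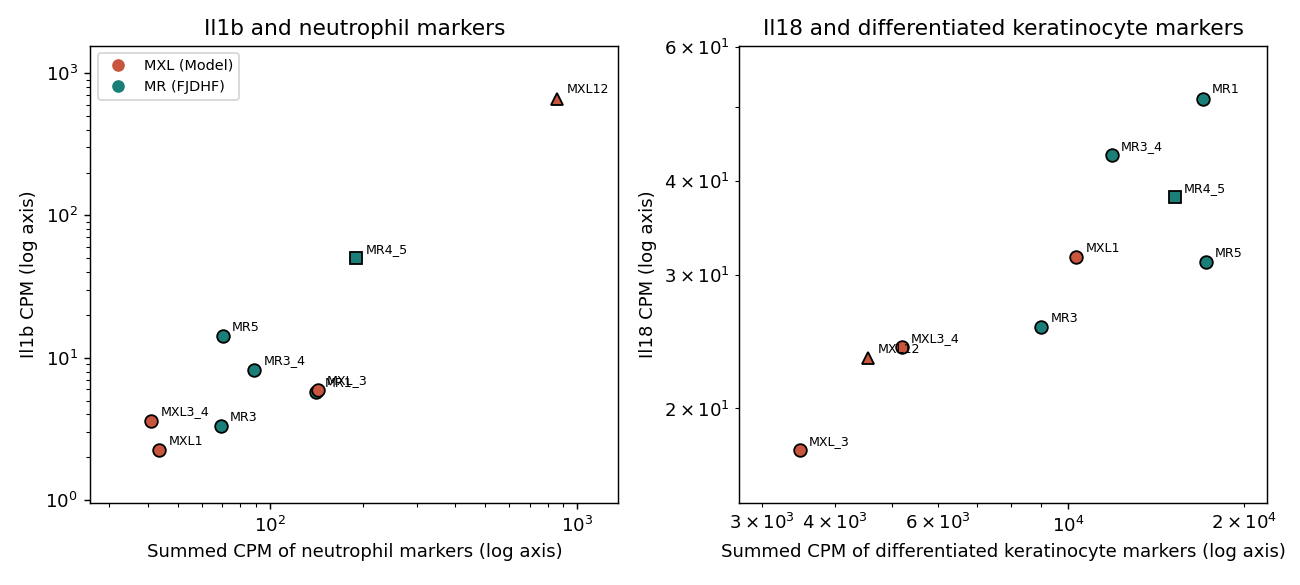
Left, Il1b CPM (y axis) against the summed CPM of 13 neutrophil markers (x axis); right, Il18 CPM against the summed CPM of 11 markers of differentiated keratinocytes; each point is 1 library (MXL red, MR green) and all axes are logarithmic. MXL12 and MR4_5 have the highest values on both axes at the left, and at the right MXL_3 is lowest and MR1 has the highest Il18.

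The wider pathway showed no call either. Of 65 tested genes in 5 lists of partners and targets, 0 were called and 2 had an unadjusted p under 0.05, Il33 and Cxcl5, where 1.57% of all tested genes did. Both had a log2 fold change below 0, -1.37 for Il33 and -4.98 for Cxcl5, and without MXL12 it was -0.12 and 0.96. Among the receptor chains and relatives 5 of 6 tested genes were highest in MXL12, against 14.5% of all tested genes. Their median log2 fold change was -0.68, against -0.032 over all tested genes, and -0.11 without MXL12. Il33, an epithelial alarmin of the same family, read 276 CPM in MXL12, 26.3 to 70.9 CPM in the other MXL libraries and 28.9 to 48.3 CPM in MR. The shared co-receptor chain Il1rap read 185 CPM in MXL12 and 55.8 to 94.7 CPM in the other 8 libraries. Il18rap, the second chain of the IL-18 receptor, read 24.6 CPM in MXL12 and 2.79 to 7.15 CPM elsewhere.

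Among the transcripts that IL-1 is known to induce, 10 of 16 tested were highest in MXL12, against 14.5% of all tested genes. A log2 fold change below 0 was found for 13 of 16, against 11631 of all 20817 tested genes, with a median of -0.39. Cxcl5, a neutrophil chemokine, read 96.8 CPM in MXL12, 0.152 to 0.581 CPM in the other MXL libraries and 0.10 to 1.94 CPM in MR. Ptgs2 read 222 CPM in MXL12, 6.19 to 7.29 CPM in the other MXL libraries and 5.43 to 25.9 CPM in MR. Il6 read 14.1 CPM in MXL12, and 0.225 to 1.34 CPM in the other 8 libraries. Without MXL12 13 of the 16 had a log2 fold change above 0, against 45.0% of all tested genes. The median was then 0.35 against -0.028 over all tested genes, so the sign of this list turned on 1 library.

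The remaining lists moved little. The 19 signal transducers and brakes had a median log2 fold change of 0.00, with 0 genes at an unadjusted p under 0.05, and Tnfaip3, a brake on NF-kappaB signalling, had the smallest p (log2 fold change -0.35, unadjusted p = 0.102), ahead of Ikbkb (0.16) and Irak3 (-0.16). Of 16 inflammasome and processing genes 6 were highest in MXL12, against 14.5% of all tested genes, and the median log2 fold change was -0.11. Their smallest p were those of Ctsg (-1.12, unadjusted p = 0.0744), Mefv (-0.89, unadjusted p = 0.118) and Casp4 (-0.45, unadjusted p = 0.148). Without MXL12 the log2 fold change was -1.31 for Ctsg, -0.08 for Mefv and -0.18 for Casp4. Ctsg was low, with medians of 0.159 CPM in MR and 0.293 CPM in MXL and 0.0551 CPM in its lowest library. Of the 8 transcripts that IL-18 is known to induce 1 was highest in MXL12, Tnf, at 9.19 CPM, and the median was 0.17. Tnf had a log2 fold change of -0.76, and of 0.40 without MXL12, and Fasl, a death ligand of cytotoxic cells, one of 0.93 (unadjusted p = 0.139). Fasl was low as well, at 0.101 to 0.797 CPM. Ifng, the product most tied to IL-18, was at most 0.385 CPM in any library, with 0 in MXL12 and in the lowest MR library, and its log2 fold change was 0.82, with a standard error of 1.13.

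Single MXL libraries also decided how many of the 10 genes passed an unadjusted p under 0.05. Without MXL12 it was 3, Il1a, Il1b and Il18, each with a log2 fold change above 0, where 1.73% of all tested genes passed. The exact permutation p without MXL12 was above 0.05 for each of these 3 genes, at 0.0893, 0.214 and 0.107. Without MXL1 the count was 6, Il18 above 0 and Il1b, Il1r2, Il1r1, Il18r1 and Nlrp3 below 0, where 3.43% of all tested genes passed. The exact permutation p without MXL1 was 0.0357 for Il18 and for Il1r1, and 0.0536 or more for the other 4. Without MXL3_4, 3 of the 10 genes passed, Il18 above 0 and Il1b and Nlrp3 below 0, where 307 of all tested genes did. Without MXL_3, 4 passed, Il18bp above 0 and Il1b, Il1r2 and Nlrp3 below 0, where 469 of all tested genes did. The exact permutation p of Il1b and Nlrp3 without MXL3_4 or MXL_3 was 0.482 or more. The adjusted p of each gene named here was 0.98 or more in all these fits.

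Some of these genes share exons with another gene. In the GENCODE M21 annotation, Il1a shares 222 exonic bases with Gm14023 (44 to 118 counts per library) and Il1b 25 with its antisense gene Il1bos (24 to 361 counts, the highest in MXL12). Il18bp shares 80 with Numa1, which had 2385 to 10986 counts, the lowest in MXL12, against 188 to 408 for Il18bp. Each of these genes is on the opposite strand. The positions of Il18bp and Casp1 in the FPKM table differed from those in this annotation. Whether the counting used strand is not given in the sources used here, so reads over the shared bases cannot be assigned with certainty. The other 7 genes shared no exonic base with another gene.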

How the data were processed

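RNA of back skin from 9 DNCB-treated mice was sequenced by the authors from both ends as poly(A)-selected strand-specific libraries. The authors deposited read counts per gene without normalization and FPKM values, with the counts repeated in 9 columns of the FPKM table that were not used. The submitters' processing notes list HISAT, StringTie and DESeq2 and the build mm10, without versions, and the annotation release and the strand setting are not given in the sources used here. The 10 members and the gene lists were chosen with earlier results of these data known.

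Counts were analysed with edgeR 4.0.16 in R 4.3.3 (filterByExpr, TMM, quasi-likelihood test, Benjamini-Hochberg adjustment over 20817 genes, no covariate). A call needed a change of 2-fold or more and an adjusted p under 0.05. The standard error is the log2 fold change divided by the root of the F statistic. Single genes also had a two-sided exact permutation test on log2(CPM + 0.5) over 126 arrangements, with 0.00794 the smallest p. No adjusted p over the 10 genes alone was computed.

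Named genes are the 10 members, the 5 genes with the highest r for each ligand and the 3 with the smallest p in each pathway list. Genes that share exons with a member are also named. For marker lists only the sums were planned. The single markers Trem1, S100a9, Ly6g, Mmp8, Krt5, Krt10 and Krt14 were named outside these rules. Alternatives were DESeq2 1.42.0 (size factors and Wald test), limma 3.58.1 on log2(FPKM + 1), no filter, at least 10 counts in every library, a pseudocount of 0.1, FPKM, ranks, each library left out, and a replicate block. The steps were tested on simulated data. The counts of each pair of libraries differed beyond sampling noise (chi-square per degree of freedom of at least 135.2). At these depths 3 counts correspond to 0.0375 to 0.0415 CPM, a floor that covers counting error only, as PCR copies are not independent. Of the 34637 genes of the FPKM table, 34540 were in GENCODE M21 (GRCm38), 31561 with the same start and end. Figures were drawn with matplotlib 3.10.9.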

Additional observations from a re-analysis of the deposited data

Results flagged for a closer look

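The CPM of each of the 10 genes was searched for libraries far from the rest of their group with Dixon's ratio, the gap to the nearest library divided by the range of the group. Of 20 comparisons 7 passed the 95% critical value. That value flags about 1 in 20 by chance only where values are normally distributed, which CPM of 4 or 5 libraries need not be. No share of all tested genes past it is given, so the 7 are a description. The genes share libraries, so the 7 are not independent. In MXL12 the ratio was 0.994 for Il1b, 0.96 for Nlrp3, 0.91 for Il1r2, 0.869 for Il1a and 0.829 for Il1rn, each above the other MXL libraries. In MR4_5 it was 0.822 for Nlrp3 and 0.77 for Il1b, each above the other MR libraries. Neutrophil markers summed to 861 CPM in MXL12 and 191 CPM in MR4_5, the highest of each group. They summed to 143 CPM in MXL_3, 141 in MR1 and 70.4 in MR5, where Il1b read 5.95, 5.74 and 14.1 CPM. Activated keratinocyte markers summed to 1879 CPM in MXL12 and 3826 CPM in MR4_5, also the highest of each group. Of the 13 neutrophil markers 11 were highest in MXL12, against 14.5% of all tested genes. Within MR 7 of them were highest in MR4_5, a count given without the share of all tested genes. The part of neutrophils or keratinocytes in these levels was not tested.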

How the results depend on the processing

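With edgeR 0 of the 10 genes were called, and this count was 0 under each alternative, DESeq2 giving no adjusted p for Il1b and Nlrp3. DESeq2's Wald test called 2 of all genes and put 2 of the 10 members at an unadjusted p under 0.05. Without a filter 905 of all genes had an unadjusted p under 0.05. With single libraries left out, 226 (without MR4_5) to 715 (without MXL1) of all genes and 0 (without MR1 or MR3_4) to 6 (without MXL1) of the 10 members had one. The log2 fold changes over these leave-outs ran from -4.42 to 2.06 for Il1b, -2.36 to 0.78 for Nlrp3, -0.32 to 0.70 for Il1a, -0.33 to 0.41 for Il1rn and -0.18 to 0.19 for Casp1. The differences in mean log2(CPM + 0.5) ran from -1.25 to 1.39 for Il1b, -0.89 to 0.67 for Nlrp3, -0.11 to 0.63 for Il1a, -0.22 to 0.38 for Il1rn, -0.15 to 0.17 for Casp1 and -0.59 to 0.01 for Il1r1. For Il18 the exact permutation p was 0.0635 with ranks (a difference of 3.60 ranks) and above 0.05 in 8 of 9 leave-outs. With limma the sign turned for Il1a (0.15) and Il1rn (0.03), and with ranks for Il1b (0.90), Casp1 (-0.45) and Nlrp3 (0.45). The column codes share 3 numbers between the groups, and the libraries that share one had deviations correlated at 0.225, -0.219 and 0.118, so they were taken to share only a number. A replicate block on these 3 pairs leaves out MXL12, MR4_5 and MR5 by construction, the 3 libraries with the most Il1b. It called 0 genes, with 264 at an unadjusted p under 0.05, and gave 0.64 for Il1a, 0.59 for Il1b, 0.13 for Il1rn, 0.09 for Il1r2, -0.12 for Casp1 and 0.60 for Nlrp3, each of opposite sign to the fit over 9 libraries. The cause of the other changes was not tested.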
